A study of Homo sapiens with 12 samples.

Results

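The 10 genes described here encode scavenger and endocytic receptors of macrophages: MSR1, MARCO, COLEC12, CD36, SCARB1, OLR1, STAB1, CD163, MRC1 and VSIG4. They were chosen by symbol, through the Ensembl identifiers of the deposited count table, and make up 10 of its 58051 genes. The list was drawn up with earlier results of these data known. All 10 had counts and were tested. The cells were THP-1, a human monocytic leukaemia line, and every culture had first been turned into macrophage-like cells with phorbol 12-myristate 13-acetate (PMA, 20 ng/ml, 24 h) followed by a change of medium. There were 4 groups of 3 libraries: wild type (WT) and SDC3-KO, each given PMA alone (called untreated below) or PMA and then, a day after the medium change, recombinant human IFN-gamma (IFN-γ). SDC3 encodes syndecan-3, a heparan sulphate proteoglycan of the cell surface, and was edited with CRISPR/Cas9. The labels do not give the dose or duration of IFN-γ, nor how many edited lines or clones were used. Whether replicates were grown as separate cultures is not stated either, and the p-values then reflect only the spread among these libraries, part or all of which may be technical.

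Scavenger receptors fall into several classes that differ in structure. Many of them bind polyanionic or modified ligands, such as oxidised or acetylated lipoproteins, apoptotic cells and bacterial surfaces, and bring them into the cell. In macrophages they feed cholesterol into the endolysosomal system, clear dying cells and haemoglobin complexes, and several of them are used as markers of macrophage polarisation. IFN-γ is the classical stimulus of inflammatory macrophages, and CD163 and MRC1 are usually listed among the markers of the alternative state.

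Counts per library ranged from 23616738 to 29426415, and 3 counts corresponded to 0.102 to 0.127 counts-per-million (CPM). SDC3 itself read 196 to 252 CPM in untreated WT, 571 to 590 in WT with IFN-γ, 43.9 to 49.9 in untreated KO and 236 to 244 in KO with IFN-γ, so it was lower in KO than in WT under each condition. The edited position is not given in the labels, and these values check only the direction of the genotype labels. Of 12 macrophage and monocyte markers 11 exceeded 1 CPM in at least 1 library. CD68 stayed under 1 CPM in every library, but 1789 of its 2189 exon bases are shared with a second annotated gene on the same strand, and such reads are given to neither gene under the counting options stated. The summed level of these 12 markers was 8346 to 8621 CPM in untreated WT, 10763 to 10847 in WT with IFN-γ, 7497 to 7665 in untreated KO and 10133 to 10401 in KO with IFN-γ. The 10 markers of undifferentiated monoblasts and granulocytes summed to 213 to 229 CPM, 29.2 to 32.4, 369 to 389 and 90.1 to 103 in the same order, with CEACAM8 at 0 and CD34 under 1 CPM throughout. Of these, 8 were tested between KO and WT. With IFN-γ 5 were higher and 2 lower in KO, and without it 6 and 2. Of the macrophage and monocyte markers, all 12 tested, 2 were higher and 6 lower with IFN-γ, and 4 and 6 without it. Of all genes 22.9% were higher and 24.3% lower with IFN-γ, and 25.4% and 24.8% without it. The part of these markers in the receptor results was not tested. The 8 lymphocyte markers summed to 4.92 to 7.42 CPM over all libraries (CD2 and MS4A1 at 0), and of 9 epithelial and stromal markers EPCAM, KRT18, CDH1, COL1A2 and DCN were under 1 CPM in every library. The sum of those 9 was 580 to 632 CPM in untreated WT and 337 to 347 in WT with IFN-γ. In KO it was 826 to 847 untreated and 372 to 390 with IFN-γ. The 9 include PECAM1, a gene that monocytes also express, but its share of the sum is not given here. Of the 4 tested, 2 were higher and 1 lower in KO with IFN-γ, and 2 and 2 without it, beside the shares of all genes above. In such bulk libraries fewer cells of a type and less RNA per cell cannot be told apart.

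The receptors went in different directions in the knockout. Transcripts of MSR1, COLEC12, OLR1, CD163 and MRC1 were lower in KO than in WT both with and without IFN-γ, and those of STAB1 and VSIG4 were higher under both conditions. With IFN-γ 2 members were higher and 6 lower in KO by edgeR's quasi-likelihood test (Benjamini-Hochberg adjusted p under 0.05), against 22.9% of all 17119 tested genes called higher and 24.3% lower, 47.2% in either direction. Without IFN-γ 2 were higher and 7 lower, where 25.4% of all genes were called higher and 24.8% lower, 50.1% in all. The members' differences were larger than those of most genes, but the list was chosen with earlier results of these data known. The comparison with all genes is therefore a description and no test of these receptors as a family. In each of the genotype comparisons 7 of the 10 members were called with a difference of at least 1 on the log2 scale, which 9.33% of all genes reached with IFN-γ and 9.12% without it. MARCO, as described below, passed the count filter only through the groups where it was highest; leaving it aside, 8 of 9 members were called under each condition and 7 and 6 of them reached that size. The median absolute log2 fold change of the members was 1.15 with IFN-γ and 1.70 without it, against 0.28 and 0.28 over all genes. Replicates of KO and WT did not overlap for 8 members with IFN-γ (54.3% of all genes) and for 9 without it (56%). Without MARCO these counts were 8 and 8.

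**Figure D1:**
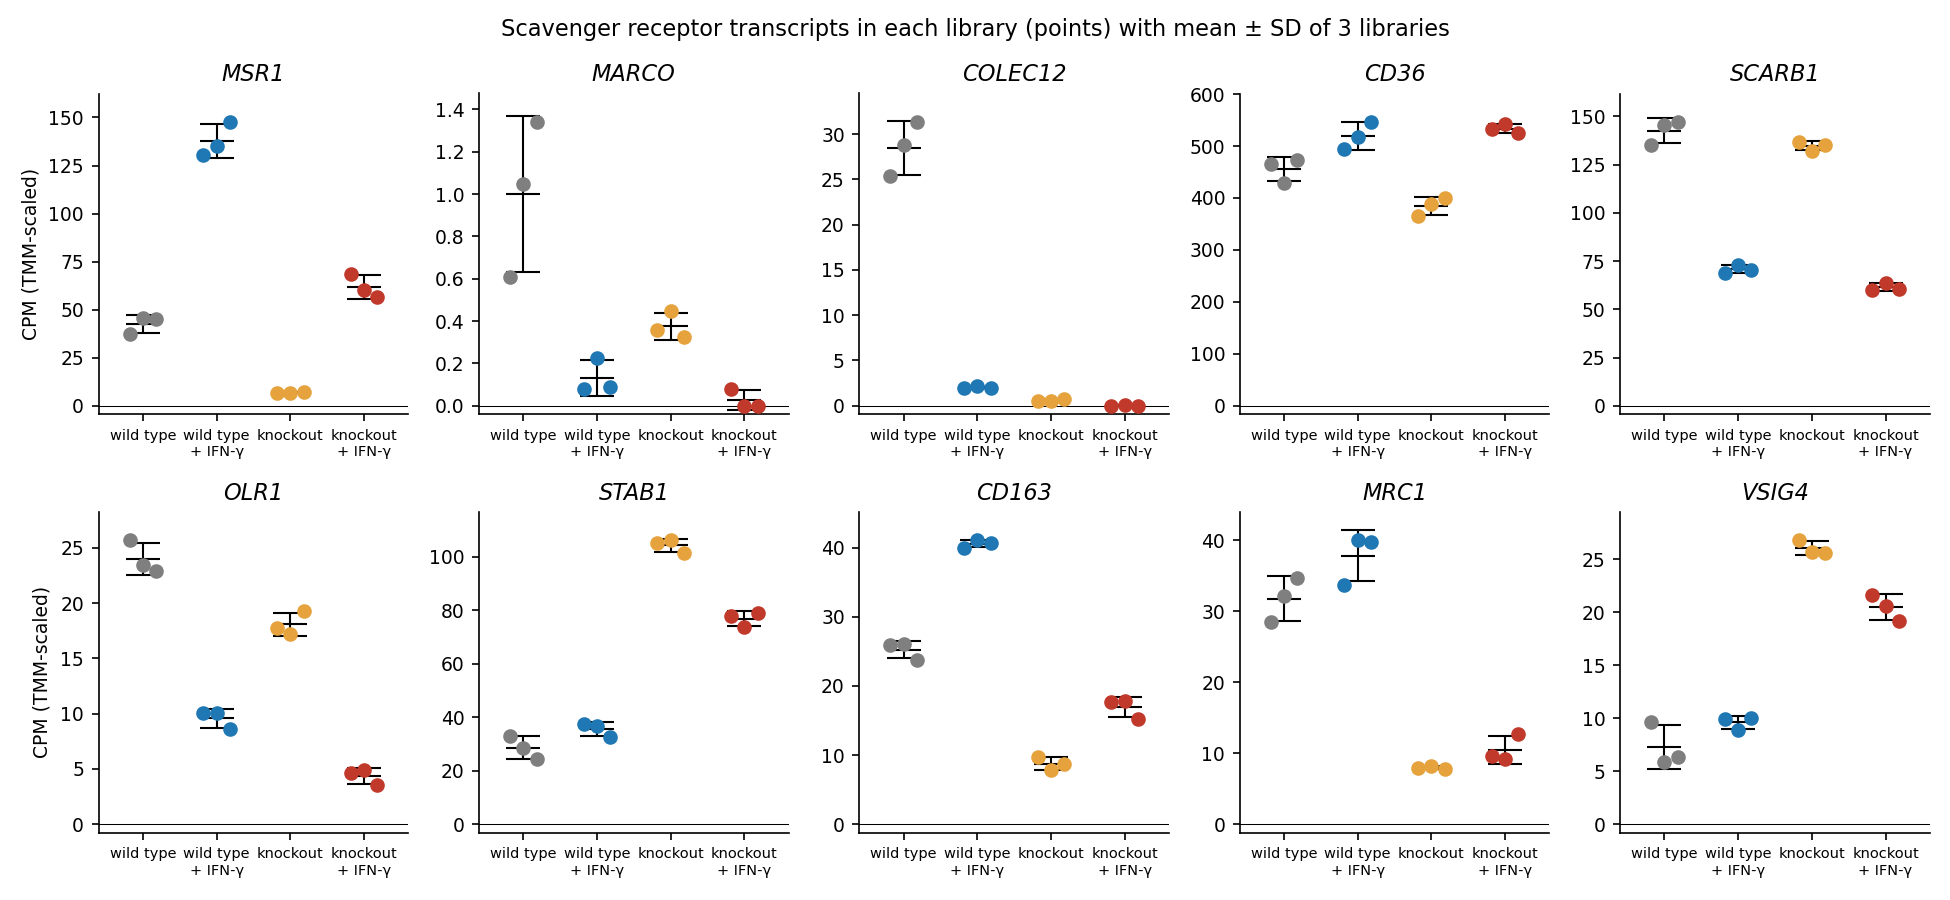
Each panel shows 1 receptor gene, with CPM scaled by TMM on a linear axis, a point for each library and the mean with its SD over 3 libraries for each group. COLEC12, MSR1, CD163 and MRC1 are lower and STAB1 and VSIG4 higher in both knockout groups than in the wild-type group of the same treatment, while CD36 lies between 365 and 546 CPM in all 12 libraries.

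**Figure D2:**
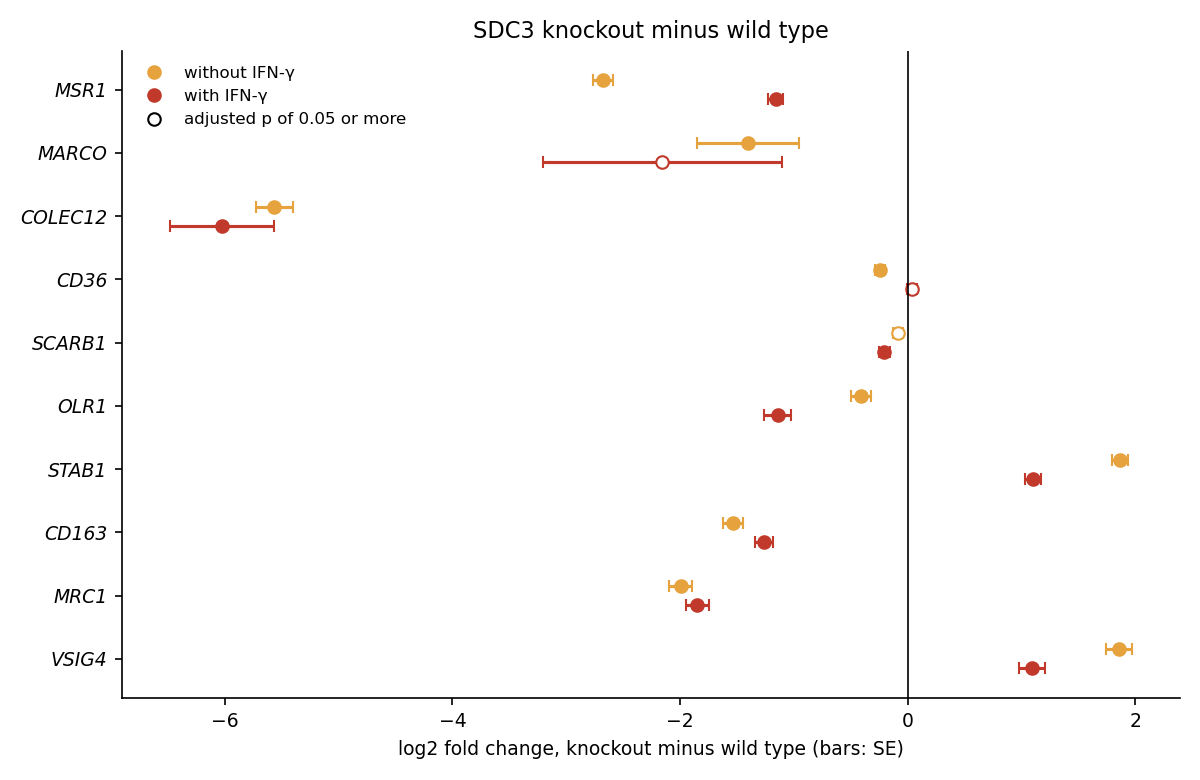
Log2 fold change of knockout against wild type for each receptor gene, without and with IFN-γ, with the standard error as bars and open symbols for an adjusted p of 0.05 or more. MSR1, STAB1 and VSIG4 lie nearer to 0 with IFN-γ than without it, and COLEC12 lies beyond -5 under both conditions.

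MSR1 (ENSG00000038945; hg38 chromosome 8, 16107878 to 16567490, minus strand) encodes the class A scavenger receptor that takes up acetylated and oxidised low-density lipoprotein. Untreated WT libraries held 37.4, 45.6 and 44.9 CPM of MSR1, and untreated KO libraries 6.55, 6.53 and 6.97 CPM. IFN-γ-treated libraries held 130, 135 and 148 CPM in WT and 68.5, 60.1 and 56.7 CPM in KO. Every KO library therefore lay below every WT library of the same treatment, and the KO libraries with IFN-γ lay above the untreated WT libraries. Without IFN-γ MSR1 in KO stood at 15.7% of the WT level (-2.68 on the log2 scale, SE 0.09, edgeR adjusted p = 1.0e-21), and with it at 44.8% (-1.16, SE 0.07, adjusted p = 1.3e-15). IFN-γ raised MSR1 in WT by a log2 fold change of 1.69 (SE 0.07, adjusted p = 1.7e-20) and by 3.21 in KO (SE 0.09, adjusted p = 3.0e-25). The difference of the responses was itself called, at 1.52 (SE 0.11, adjusted p = 7.5e-12), the largest among the members in absolute size.

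MARCO (ENSG00000019169; chromosome 2, 118942166 to 118994660, plus strand), a class A receptor for bacteria and particles, was close to the limit of detection. It had 16, 34 and 40 counts in the untreated WT libraries, 10, 14 and 10 in untreated KO, 2, 6 and 2 in WT with IFN-γ, and 2, 0 and 0 in KO with IFN-γ. MARCO was past the cut of the count filter in 3 untreated WT and 2 untreated KO libraries, and in 0 libraries with IFN-γ. The filter asked for 3 libraries, so MARCO met it by being high in untreated WT. Its difference between untreated WT and KO and its falls with IFN-γ are not independent of that filter. Its CPM values of 0.609, 1.05 and 1.34 in untreated WT did not overlap those of 0.360, 0.446 and 0.322 in untreated KO (log2 fold change -1.41, SE 0.45, adjusted p = 0.0094), but the call was lost without untreated WT replicate 3 (adjusted p = 0.081). With IFN-γ the genotypes overlapped and the difference was not called (adjusted p = 0.092). The ratio of WT to KO was then 5.07, with an exact 95% counting interval of 1.08 to 47.6, from 10 counts against 2, and of 0.568 to 240 when mates of a pair are taken as 1 count. That result turned on 1 library: without KO replicate 1 with IFN-γ, which held both counts, the adjusted p was 0.022 and the fitted log2 value -4.94, and without WT replicate 2 with IFN-γ it was 0.37. MARCO fell with IFN-γ in WT (-2.87, SE 0.55, adjusted p = 4.2e-05) and in KO (34 counts against 2, ratio 14.2, interval 3.65 to 122, adjusted p = 4.5e-04). The interval in KO was 2.23 to 594 when mates are taken as 1 count.

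COLEC12 (ENSG00000158270; chromosome 18, 316740 to 500722, minus strand) encodes a collectin-type class A receptor with a carbohydrate recognition domain. It showed the largest difference between genotypes of the 10 members, and the 250 bases before its RefSeq start site (GRCh38.p14, chr18:500702-500951, minus strand) are shown for that reason, in lower case because none of the motifs searched was found in them.
COLEC12: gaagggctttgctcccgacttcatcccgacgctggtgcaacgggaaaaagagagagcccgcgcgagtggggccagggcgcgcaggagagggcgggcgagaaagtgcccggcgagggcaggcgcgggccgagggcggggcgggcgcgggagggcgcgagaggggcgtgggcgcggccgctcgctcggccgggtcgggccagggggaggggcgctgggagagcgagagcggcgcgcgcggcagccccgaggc
The window is 78.4% G and C, where the median of all 35116 RefSeq promoter windows was 58%. The searches, on both strands, were for the GAS element TTCNNNGAA (in 6.57% of all windows), the core of the interferon-stimulated response element (3.02%), the PU.1 core GAGGAA (23.6%) and the AP-1 site TGANTCA (6.57%).

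Untreated WT libraries read 25.4, 28.8 and 31.3 CPM of COLEC12 and untreated KO libraries 0.504, 0.574 and 0.709 CPM, so that KO held 2.11% of the WT level (log2 fold change -5.56, SE 0.16, adjusted p = 4.5e-23). WT libraries with IFN-γ read 2.00, 2.13 and 1.91 CPM, and in KO with IFN-γ 2 counts were found in replicate 2 and none in the others. The groups did not overlap under either condition. From 150 counts against 2, WT with IFN-γ held 76.1 times the COLEC12 of KO, with an exact 95% counting interval of 20.7 to 634 (13.3 to 3046 when mates of a pair are taken as 1 count). The test called this difference (adjusted p = 1.0e-12), and its fitted log2 value of -6.02 became -8.80 without KO replicate 2. IFN-γ lowered COLEC12 in WT by 14.2-fold in counts (log2 fold change -3.82, SE 0.14, adjusted p = 9.0e-22), and in KO from 54 counts to 2 (ratio 22.6, interval 5.96 to 191, or 3.72 to 925 with mates as 1 count, adjusted p = 2.4e-07, fitted -4.28, or -7.05 without replicate 2 with IFN-γ). A difference between these responses was not called (-0.46, SE 0.66, adjusted p = 0.73), and its sign changed without KO replicate 1 or 3 with IFN-γ. COLEC12 shares 545 exon bases with an annotated gene on the opposite strand that had 0 counts.

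CD36 (ENSG00000135218; chromosome 7, 80369575 to 80679277, plus strand), the class B receptor for long-chain fatty acids and oxidised lipoprotein, was the most abundant member and differed little between genotypes. It read 464, 429 and 473 CPM in untreated WT, 365, 389 and 399 in untreated KO, 493, 517 and 546 in WT with IFN-γ, and 533, 542 and 524 in KO with IFN-γ. Without IFN-γ all KO libraries were below all WT libraries, at a log2 fold change of -0.24 (SE 0.04, adjusted p = 1.5e-05). With IFN-γ the genotypes overlapped, and the difference of 0.04 (SE 0.04, 95% interval -0.05 to 0.13, adjusted p = 0.48) was not called. CD36 rose with IFN-γ by 0.47 in KO (SE 0.04, adjusted p = 2.4e-11) and by 0.19 in WT (SE 0.04, adjusted p = 3.2e-04), the WT rise being 0.07 (adjusted p = 0.14) with upper-quartile scaling and -0.06 (adjusted p = 0.19) with library totals. The difference of the responses was 0.28 (SE 0.06, adjusted p = 9.4e-04).

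SCARB1 (ENSG00000073060; chromosome 12, 124776856 to 124882668, minus strand), the class B receptor for high-density lipoprotein, depended mainly on treatment. Untreated libraries read 135, 145 and 147 CPM in WT and 137, 132 and 135 in KO, and IFN-γ-treated libraries 68.8, 73.0 and 70.3 in WT and 59.9, 63.7 and 60.7 in KO. SCARB1 thus fell to 49.6% of the untreated level in WT (-1.01 on the log2 scale, SE 0.05, adjusted p = 9.4e-19) and to 45.6% in KO (-1.13, SE 0.05, adjusted p = 4.7e-20), and a difference between the responses was not called (-0.12, SE 0.07, 95% interval -0.26 to 0.01, adjusted p = 0.25). Between genotypes SCARB1 was lower in KO with IFN-γ by a small amount (-0.20, SE 0.05, adjusted p = 8.2e-04). Without IFN-γ the groups overlapped and the difference of -0.08 (95% interval -0.17 to 0.0085) was not called (adjusted p = 0.13), although it was without untreated WT replicate 1 (adjusted p = 0.031) and with library totals (0.028).

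OLR1 (ENSG00000173391; chromosome 12, 10158301 to 10172138, minus strand) encodes LOX-1, a C-type lectin-like receptor for oxidised lipoprotein. Its levels in untreated cells were 25.7, 23.4 and 22.9 CPM in WT and 17.7, 17.2 and 19.3 in KO, and with IFN-γ they were 10.1, 10.0 and 8.60 in WT and 4.66, 4.88 and 3.52 in KO. No pair of groups overlapped within a condition or a genotype. OLR1 was lower in KO without IFN-γ (-0.41, SE 0.09, adjusted p = 2.8e-04) and with it (-1.14, SE 0.12, adjusted p = 1.5e-09). IFN-γ lowered it to 40.0% of the untreated level in WT (-1.32, SE 0.10, adjusted p = 1.7e-13) and to 24.0% in KO (-2.06, SE 0.11, adjusted p = 4.4e-17). The fall was larger in KO, with a difference of responses of -0.74 (SE 0.15, adjusted p = 5.5e-04).

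STAB1 and VSIG4 were the members that were higher in the knockout. STAB1 (ENSG00000010327; chromosome 3, 52495338 to 52524495, plus strand) encodes stabilin-1, a multi-domain receptor that takes up the matrix protein SPARC and modified lipoprotein. VSIG4 (ENSG00000155659; X chromosome, 66021738 to 66040125, minus strand) encodes the immunoglobulin-type complement receptor CRIg, which binds fragments of complement component C3 on opsonised particles. They lie on different chromosomes, and their upstream windows of 250 bases (GRCh38.p14, chr3:52495088-52495337 on the plus strand and chrX:66040081-66040330 on the minus strand) are set side by side because the transcripts moved together. Capitals mark a match to the PU.1 core.
STAB1: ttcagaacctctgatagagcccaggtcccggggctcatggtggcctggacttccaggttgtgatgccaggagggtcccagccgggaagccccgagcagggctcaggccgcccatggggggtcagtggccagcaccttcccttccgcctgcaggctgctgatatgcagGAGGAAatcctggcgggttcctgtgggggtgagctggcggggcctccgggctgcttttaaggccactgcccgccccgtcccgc
VSIG4: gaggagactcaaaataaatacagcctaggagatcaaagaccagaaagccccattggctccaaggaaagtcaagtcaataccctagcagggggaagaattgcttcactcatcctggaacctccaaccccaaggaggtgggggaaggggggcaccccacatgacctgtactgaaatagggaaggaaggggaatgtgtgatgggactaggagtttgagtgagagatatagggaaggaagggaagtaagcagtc
The STAB1 window holds 1 PU.1 core, 83 to 78 bases before the start on the plus strand, and the VSIG4 window holds none of the letters searched. They are 67.6% and 50.4% G and C.

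STAB1 read 33.0, 28.5 and 24.3 CPM in untreated WT and 105, 106 and 102 in untreated KO, and with IFN-γ 37.6, 36.8 and 32.7 in WT and 77.8, 73.5 and 79.0 in KO. VSIG4 read 9.64, 5.85 and 6.30 CPM in untreated WT and 26.8, 25.7 and 25.6 in untreated KO, and with IFN-γ 9.93, 8.89 and 10.0 in WT and 21.6, 20.6 and 19.2 in KO. For both genes every KO library was above every WT library, whatever the treatment. The sizes were alike: without IFN-γ STAB1 was 3.65-fold higher in KO (log2 fold change 1.87, SE 0.07, adjusted p = 2.5e-20) and VSIG4 3.62-fold (1.86, SE 0.11, adjusted p = 4.7e-15). With IFN-γ the differences were 1.10 (SE 0.07, adjusted p = 1.9e-14) for STAB1 and 1.09 (SE 0.11, adjusted p = 1.3e-09) for VSIG4.

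The responses of STAB1 and VSIG4 to IFN-γ had opposite signs in the genotypes. In KO both fell, STAB1 at a log2 fold change of -0.44 (SE 0.06, adjusted p = 5.4e-07) and VSIG4 at -0.35 (SE 0.10, adjusted p = 0.0038), with no overlap between treated and untreated libraries. In WT both rose, STAB1 by 0.33 (SE 0.07, adjusted p = 3.6e-04) and VSIG4 by 0.42 (SE 0.13, adjusted p = 0.0050), but treated and untreated libraries overlapped for both. The WT rises were not called with library totals (0.08, adjusted p = 0.40, and 0.17, adjusted p = 0.25). That of VSIG4 was 0.28 (adjusted p = 0.064) without untreated WT replicate 2 and 0.66 (adjusted p = 4.1e-06) without untreated WT replicate 1, the library with the most VSIG4 in its group. The difference between the responses was called for STAB1 (-0.77, SE 0.10, adjusted p = 6.2e-07) and for VSIG4 (-0.77, SE 0.16, adjusted p = 8.1e-04). STAB1 shares 111 of its 10588 exon bases with NT5DC2 on the opposite strand, a gene with up to 23398 counts in a library. Reads over those shared bases are given to neither gene under the counting options stated.

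CD163 and MRC1, the members most used as markers of alternatively activated macrophages, were both lower in the knockout. CD163 (ENSG00000177575; chromosome 12, 7470813 to 7503893, minus strand) takes up complexes of haemoglobin and haptoglobin. Its window before the RefSeq start (GRCh38.p14, chr12:7503778-7504027, minus strand) is shown because it was the only one of the 6 found with a match to an interferon motif; capitals mark, from the left, the PU.1 core and the core of the interferon-stimulated response element, both on the opposite strand.
CD163: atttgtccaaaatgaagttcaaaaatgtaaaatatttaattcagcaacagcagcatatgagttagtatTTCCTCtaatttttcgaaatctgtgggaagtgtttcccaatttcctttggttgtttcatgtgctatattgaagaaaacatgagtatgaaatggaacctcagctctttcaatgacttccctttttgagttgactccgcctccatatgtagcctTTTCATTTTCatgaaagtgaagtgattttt
The interferon-type match lies 30 to 21 bases and the PU.1 match 182 to 177 bases before the start. Of the other windows found, that of CD36 holds 1 PU.1 core, 140 to 135 bases before a start site that lies 232632 bases inside the deposited gene, and that of MARCO holds none of the motifs. No window was found in the reference table for MSR1, SCARB1, OLR1 and MRC1.

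CD163 read 25.9, 26.1 and 23.8 CPM in untreated WT, 9.68, 7.81 and 8.71 in untreated KO, 40.0, 41.1 and 40.7 in WT with IFN-γ, and 17.7, 17.8 and 15.3 in KO with IFN-γ. The 4 groups did not overlap. Without IFN-γ CD163 in KO was at 34.5% of WT (-1.54, SE 0.09, adjusted p = 5.3e-16), and with it at 41.7% (-1.26, SE 0.08, adjusted p = 1.2e-14). IFN-γ raised CD163 in WT (0.68, SE 0.08, adjusted p = 1.9e-09) and in KO (0.96, SE 0.09, adjusted p = 4.5e-11), and a difference between these rises was not called (0.27, SE 0.12, 95% interval 0.04 to 0.51, adjusted p = 0.12). CD163 shares 38 exon bases with its neighbour and relative CD163L1.

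MRC1 (ENSG00000260314; chromosome 10, 17809344 to 17911170, plus strand) encodes the mannose receptor CD206, which binds mannosylated glycoproteins and collagen. It read 28.4, 32.1 and 34.7 CPM in untreated WT and 7.95, 8.22 and 7.74 in untreated KO, and with IFN-γ 33.6, 39.9 and 39.8 in WT and 9.56, 9.11 and 12.8 in KO. KO libraries were all below WT libraries. MRC1 in KO was at 25.1% of WT without IFN-γ (-1.99, SE 0.10, adjusted p = 7.2e-17) and at 27.8% with it (-1.85, SE 0.10, adjusted p = 4.4e-16). Its responses to IFN-γ were small and rested on single libraries. The WT rise of 0.25 (SE 0.09, adjusted p = 0.017), in which the groups overlapped, was not called without untreated WT replicate 1 (0.10), without WT replicate 2 (0.090) or 3 (0.069) with IFN-γ, or with upper-quartile scaling (adjusted p = 0.20), and with library totals it was -0.0012 (0.99). The KO rise of 0.40 (SE 0.11, adjusted p = 0.0033) was not called without KO replicate 3 with IFN-γ (0.089) or with library totals (0.44).

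Seen from the side of treatment, all 10 members were called in both genotypes, where 56.5% of all genes were called in WT and 61.1% in KO. MARCO counts among them although it could pass the filter only by being high without IFN-γ, so its fall adds nothing to the tally; the other 9 were called in both genotypes. In WT 6 members rose and 4 fell, and in KO 4 rose and 6 fell; in the whole transcriptome 28.6% of genes rose and 27.9% fell in WT, and 29.2% and 31.8% in KO. MSR1, CD163, CD36 and MRC1 rose in both genotypes, with CD36 and MRC1 below 0 in WT with library totals, and MARCO, COLEC12, SCARB1 and OLR1 fell in both. The difference of the responses was called for 5 members, against 15.5% of all genes. It was higher for 2, MSR1 and CD36 (7.61% of all genes), and lower for 3, OLR1, STAB1 and VSIG4 (7.87%). Changes of at least 1 on the log2 scale were called for 5 members in WT (16.2% of all genes), 5 in KO (19.4%) and 1 in the difference (2.68%). Without MARCO these counts were 4, 4 and 1. Libraries did not overlap between treatments for 7 members in WT (60.5% of all genes) and 10 in KO (66.2%), or for 6 and 9 without MARCO. Each library enters both a genotype and a treatment comparison, so these results share libraries. Scaling bears on these counts, since library totals moved the median gene to -0.27 in WT and -0.35 in KO, from -0.02 and -0.05 with TMM. Rises made up 50.7% of all WT calls with TMM, 37.5% with upper-quartile scaling and 25.1% with library totals, and 47.9%, 36.4% and 23.4% of all KO calls. For KO against WT with IFN-γ, higher genes were 48.6% of calls with TMM and 35.7% with library totals, and for the difference of responses 49.2% with TMM, 35.1% with library totals, 56.6% with RLE size factors and 56.8% with DESeq2.

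**Figure D3:**
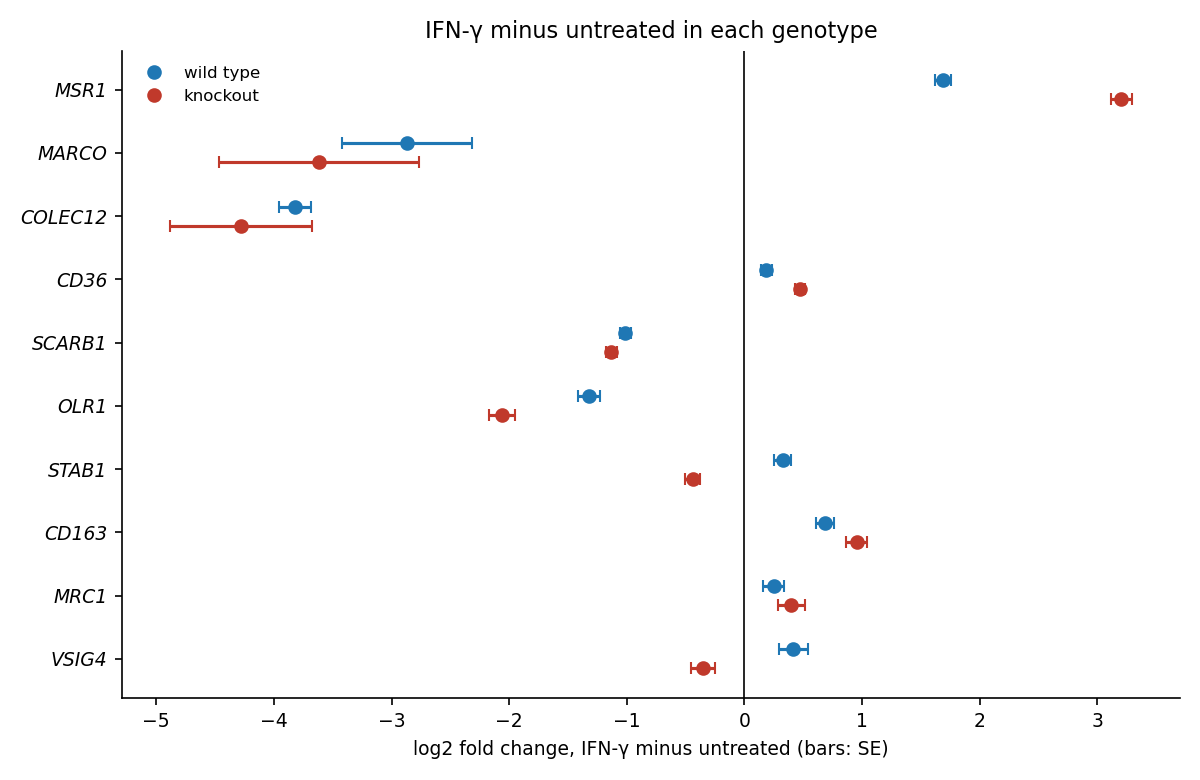
Log2 fold change of IFN-γ-treated against untreated cells for each receptor gene in wild type and knockout, with the standard error as bars; every value shown had an adjusted p under 0.05 with TMM scaling. STAB1 and VSIG4 lie on opposite sides of 0 in the genotypes, MSR1 is at 1.69 and 3.21, and the small wild-type values of CD36 and MRC1 are below 0 with library totals.

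Levels were compared between genes per length of exon, as CPM divided by the exon length in kilobases (RPKM). CD36 stood first in every group, at 45.0 ± 2.31 RPKM (SD, n = 3) in untreated WT, 51.3 ± 2.62 in WT with IFN-γ, 38.0 ± 1.75 in untreated KO and 52.7 ± 0.881 in KO with IFN-γ. In untreated WT it was followed by SCARB1 (18.4 ± 0.819), OLR1 (7.85 ± 0.483), MRC1 (6.11 ± 0.610), MSR1 (5.46 ± 0.581), CD163 (4.34 ± 0.217), COLEC12 (3.88 ± 0.406), VSIG4 (3.31 ± 0.943), STAB1 (2.70 ± 0.413) and MARCO (0.481 ± 0.177). Among neighbours in this order, the ranges of mean ± SD overlapped for MRC1 and MSR1, for CD163 and COLEC12, for COLEC12 and VSIG4, and for VSIG4 and STAB1. In untreated KO, VSIG4 (11.9 ± 0.300) and STAB1 (9.84 ± 0.224) followed SCARB1 (17.4 ± 0.294), ahead of OLR1 (5.91 ± 0.343), while MRC1 (1.53 ± 0.0464) and CD163 (1.50 ± 0.161) overlapped in their ranges and MSR1 was at 0.855 ± 0.0315. MARCO (0.181 ± 0.0305) and COLEC12 (0.0811 ± 0.0143) came last there.

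IFN-γ changed the order of levels. MSR1 became the second receptor in WT, at 17.6 ± 1.14 RPKM, ahead of SCARB1 (9.14 ± 0.274), MRC1 (7.27 ± 0.691) and CD163 (6.98 ± 0.0955), of which the last pair overlapped in their ranges. VSIG4 (4.39 ± 0.290), STAB1 (3.37 ± 0.247) and OLR1 (3.13 ± 0.276) followed, with the ranges of STAB1 and OLR1 overlapping, and COLEC12 was at 0.274 ± 0.0148. In KO with IFN-γ VSIG4 (9.34 ± 0.560) was second, and SCARB1 (7.94 ± 0.255), MSR1 (7.91 ± 0.779) and STAB1 (7.25 ± 0.271) followed, with the range of MSR1 overlapping those of both its neighbours. CD163 (2.91 ± 0.246), MRC1 (2.02 ± 0.383) and OLR1 (1.42 ± 0.240) came next, the ranges of the last pair overlapping.

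The genes around each receptor were examined as a description of its chromosomal surroundings, taking the 10 tested genes on each side (13 in all for COLEC12, close to a chromosome end). Calls among neighbours are to be read against 22.9% of all genes higher and 24.3% lower in KO with IFN-γ, and 25.4% and 24.8% without it. For MSR1, MARCO, CD36, SCARB1, STAB1, MRC1 and VSIG4 the median log2 fold change of the neighbours between KO and WT lay from -0.14 to 0.14 under both conditions. These receptors, CD36 and SCARB1 apart, lay at least 1.09 from 0 (MARCO not being called with IFN-γ). Of the 20 neighbours of each, in that order, 3, 2, 6, 6, 3, 6 and 3 were higher in KO with IFN-γ. Lower with IFN-γ were 6, 4, 1, 4, 7, 3 and 2. Without it 3, 0, 5, 3, 9, 2 and 6 were higher and 7, 5, 2, 8, 5, 5 and 2 lower. COLEC12 was different in its surroundings: 11 of its 13 tested neighbours, from 109065 to 3013315 on chromosome 18, were lower in KO with IFN-γ and 1 was higher, at a median of -0.66, and without IFN-γ 11 were lower and none higher, at -0.46. COLEC12 itself lay at -5.56 without IFN-γ. The neighbours of OLR1 on chromosome 12 (9658567 to 10723312), a region of C-type lectin receptor genes, had a median of -0.44 with IFN-γ (6 lower, 1 higher) and -0.16 without it (7 lower, 3 higher), against -1.14 and -0.41 for OLR1. Those of CD163 had medians of -0.22 with IFN-γ (8 lower, 1 higher) and -0.04 without it (4 lower, 1 higher), against -1.26 and -1.54 for CD163.

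**Figure D4:**
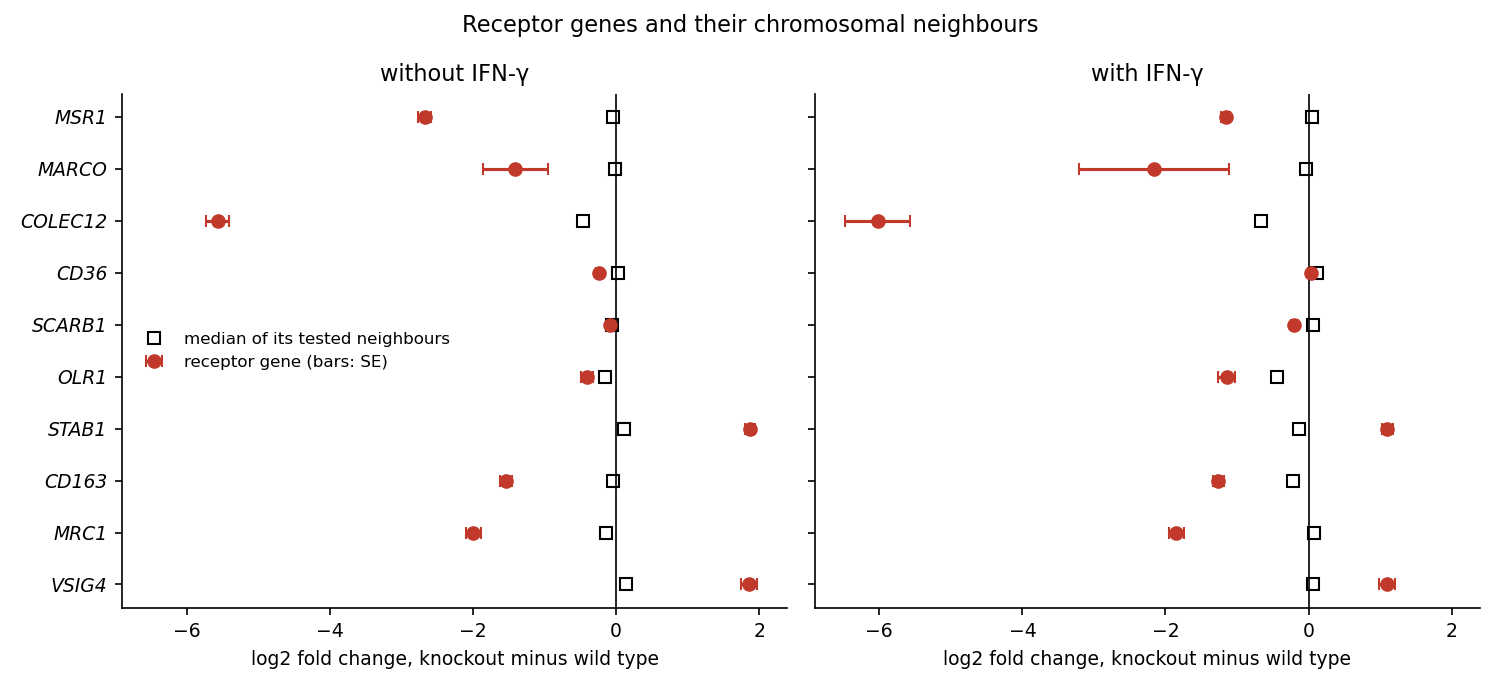
Log2 fold change of knockout against wild type for each receptor gene (circles, with the standard error) and the median of its tested neighbours on the chromosome (open squares), without and with IFN-γ. The squares lie between -0.66 and 0.14, and the lowest are those of COLEC12 at -0.46 and -0.66.

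The genes most like each receptor were sought by the root mean square distance between profiles of log2 CPM, each centred on its mean over the 12 libraries, among 10613 genes with a symbol and a mean of at least 5 CPM. The nearest gene to STAB1 was VSIG4 and the nearest to VSIG4 was STAB1, at a distance of 0.145, and for both the next was PTCRA, at 0.201 and 0.202. The profiles of STAB1 and VSIG4 themselves spread by 0.776 and 0.781 about their means. CD163 was nearest to MYL9 (0.130) and PARVA (0.183), which read 183 and 19.9 CPM in untreated WT and 59.4 and 6.30 in untreated KO. MRC1 was nearest to SUSD5 (0.173) and PTPN21 (0.188), and MSR1 to MCUB (0.291) and SLC30A4 (0.321). OLR1 lay close to CIP2A (0.0885) and to the lysozyme gene LYZ (0.143), which averaged 1294 CPM in untreated WT, 533 in WT with IFN-γ, 895 in untreated KO and 229.7 in KO with IFN-γ. SCARB1 lay close to PSRC1 (0.0466) and SHOX2 (0.0668), and CD36 to UBE2K (0.0463) and PPP4R2 (0.0468). For MARCO (KANK1, 0.393, and MYLK, 0.401) and COLEC12 (GOLGA7B, 0.898, and TM4SF19, 1.08) no gene came as near. The distance is not scaled to the spread of the receptor's own profile. That spread was 1.36 for MARCO and 3.00 for COLEC12, against 0.194 for CD36 and 0.543 for SCARB1. These distances describe 4 groups of 3 libraries each and carry no test.

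**Figure D5:**
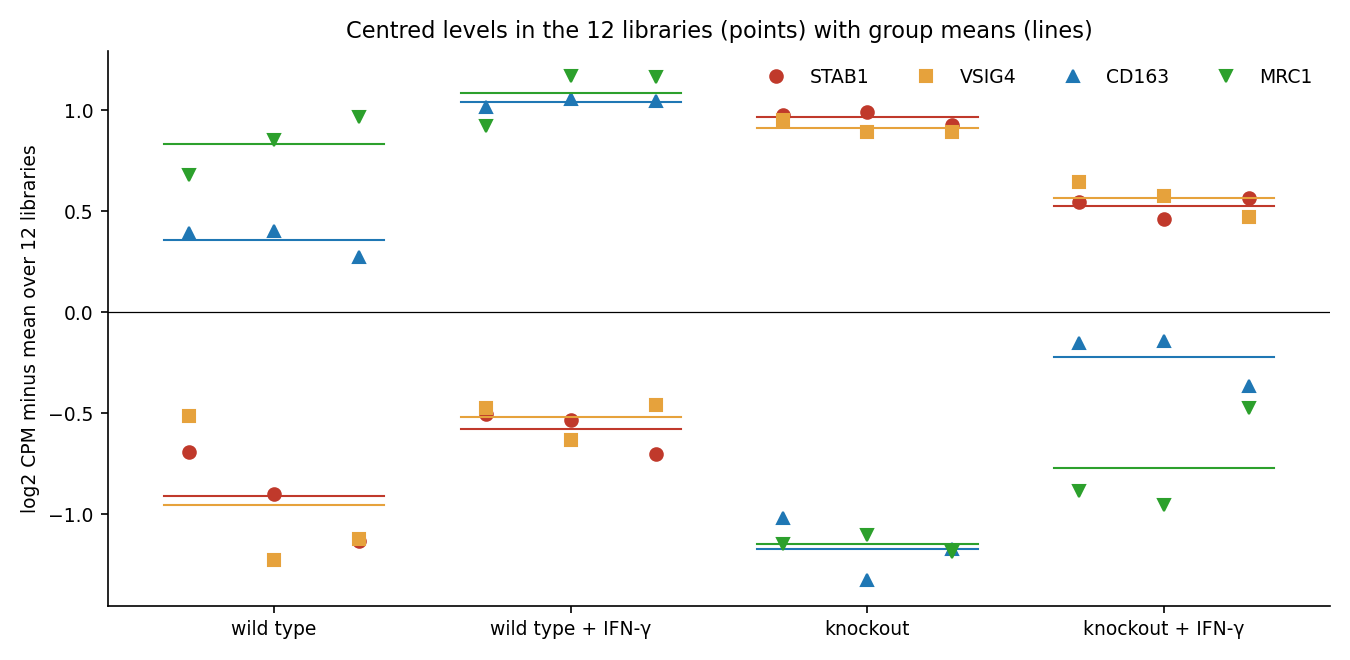
Log2 CPM of STAB1, VSIG4, CD163 and MRC1 in each of the 12 libraries, centred on the gene's mean over them, with points for libraries and lines for group means. STAB1 and VSIG4 are above their means in the 6 knockout libraries and below them in the 6 wild-type libraries, and CD163 and MRC1 are the reverse.

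Among 26 other scavenger and clearance receptors, 21 were tested. With IFN-γ 4 were higher in KO and 10 lower, at a median log2 fold change of -0.28 against -0.01 for all genes, and without IFN-γ 5 were higher and 10 lower (median -0.36). Of all tested genes 22.9% were higher and 24.3% lower with IFN-γ, and 25.4% and 24.8% without it, so that the number higher was near the background. The complement C1q-associated receptor CD93 was at 32.6, 35.3 and 33.5 CPM in WT with IFN-γ, whereas KO with IFN-γ had 2 counts in 1 library and none in the others (2515 counts against 2, ratio 1276, exact 95% counting interval 353 to 10545, adjusted p = 1.1e-24). When mates of a pair are taken as 1 count, the interval for CD93 was 229 to 50471. SSC5D, a soluble scavenger receptor cysteine-rich protein, averaged 5.35 ± 0.304 CPM (SD, n = 3) in KO and 15.2 ± 0.991 in WT with IFN-γ (-1.51, SE 0.11, adjusted p = 5.2e-13). Higher in KO were SCARF1, an endothelial-type scavenger receptor, at 17.3 ± 0.864 against 9.85 ± 0.207 CPM (0.81, SE 0.11, adjusted p = 2.0e-07), and MERTK, the receptor kinase for apoptotic cells, at 297 ± 11.9 against 229 ± 5.12 CPM (0.38, SE 0.04, adjusted p = 2.6e-09). CD14 and CD68 are also among the macrophage markers.

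All 22 transcription factors listed as known regulators of such receptors were tested, and with IFN-γ 9 were higher and 7 lower in KO (median 0.03), and without it 10 were higher and 5 lower (median 0.09), beside 22.9% and 24.3% of all genes with IFN-γ and 25.4% and 24.8% without it. MAF, a macrophage lineage factor, averaged 2.95 ± 0.797 CPM in KO and 17.5 ± 1.74 in WT with IFN-γ (-2.57, SE 0.14, adjusted p = 3.6e-16), and 3.16 ± 0.225 against 17.6 ± 2.12 without it (-2.48, SE 0.13, adjusted p = 1.7e-16). STAT6, the factor activated by interleukin 4, was lower in KO with IFN-γ (-0.68, SE 0.04, adjusted p = 2.0e-14). BACH1, a haem-sensing repressor, was higher (0.80, SE 0.05, adjusted p = 4.5e-15), as was NR1H3, the liver X receptor alpha gene (0.65, SE 0.06, adjusted p = 2.1e-10). NR1H3 was not called without IFN-γ (0.13, SE 0.06, adjusted p = 0.067).

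Of 23 genes that handle the lipid and haem such receptors bring in, all tested, 11 were higher and 6 lower in KO with IFN-γ (median 0.08), and 8 were higher and 11 lower without it (median -0.09), beside the same 22.9% and 24.3%, and 25.4% and 24.8%, of all genes. The fatty acid carrier FABP5 was lower in KO with IFN-γ, at 8.87 ± 0.754 against 15.6 ± 1.48 CPM (-0.82, SE 0.10, adjusted p = 1.3e-08), and so was the lipoprotein lipase LPL, at 21.8 ± 1.38 against 36.0 ± 4.58 CPM (-0.72, SE 0.07, adjusted p = 3.1e-10). DGAT2, which makes triglyceride, was higher at 12.6 ± 1.33 against 6.86 ± 0.432 CPM (0.87, SE 0.10, adjusted p = 2.3e-08), and the iron exporter SLC40A1 at 7.37 ± 0.459 against 4.18 ± 0.596 CPM (0.82, SE 0.12, adjusted p = 7.9e-07).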

How the data were processed

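The 12 libraries were made from poly(A) RNA of PMA-treated THP-1 macrophages with a stranded kit, per the labels' protocols. The deposited values are read counts per Ensembl gene on hg38, made by the authors with featureCounts 2.0.3 for paired reads, primary alignments and no strand option, per the file headers. Mates were counted separately: counts from 1 to 19 were even in 70.4% to 73.3% of cases in the deposited table. The submitters' processing notes name the aligners STAR 2.7.10b and BWA, the trimmer fastp 0.23.2, and Picard 2.27.5, Subread, MultiQC 1.13 and FastQC. Which aligner and annotation release lie behind the counts is not given in the sources used here. Without strand, reads of a gene and its antisense partner cannot be told apart. Those over annotated exon bases that both genes share are given to neither.

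Genes were filtered with edgeR's filterByExpr (17119 left; a CPM of 0.358 in 3 libraries), scaled by TMM and tested by quasi-likelihood in a single fit with 4 group means over the 12 libraries (edgeR 4.0.16, R 4.3.3). P-values were two-sided, adjusted by Benjamini-Hochberg over all tested genes, with a threshold of 0.05. CPM and RPKM were computed here from the deposited counts and use TMM-scaled library sizes, and the SE of a fold change was taken from its F statistic. For COLEC12, MARCO and CD93, which had 2 counts in KO with IFN-γ, exact 95% intervals of count ratios are given, which cover counting error only. They are too narrow where each mate enters as its own count, and are also given with counts halved. The log2 CPM used for profiles has a prior count of 2. Promoter windows are from RefSeq and were found for 6 of the 10 members. Alternatives were DESeq2 1.42.0, limma-voom (limma 3.58.1), RLE, upper-quartile and library-total scaling, no filter, 5 CPM in 3 libraries, only the compared libraries, a replicate block, omission of single libraries and, chosen after seeing the data, counts halved.

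The members and gene lists were chosen with earlier results of these data known. Named genes were the 10 members, SDC3, the 2 largest called rises and falls with at least 5 CPM of each other list in KO against WT with IFN-γ, and the 2 genes nearest in profile to each member. For KO against WT with IFN-γ the fit was tested on simulated data of 16188 genes: of genes changed 1.25-fold it found 56%, of those changed 1.5-fold 78%, 2-fold 94% and 4-fold 100%. It called 5 of 15988 unchanged genes. In the simulation few genes were changed, none of them with low counts, and counts were drawn independently of each other. The real comparison called 47.2% of genes and counted mates separately. These rates need not hold there, nor for genes with few counts such as MARCO. Figures were drawn with Python 3.11.15 and matplotlib 3.10.9, after tables made with numpy 2.4.6 and pandas 2.3.3.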

Additional observations from a re-analysis of the deposited data

Results flagged for a closer look

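By the test of the difference itself in edgeR, the IFN-γ response differed between the genotypes for 5 of the 10 receptor genes. Of all genes 15.5% were called. Among the 12 genes named from the other lists it differed for 5. Those 12 were picked for their difference between KO and WT with IFN-γ, which enters this test. Their count is therefore partly fixed by the choice. Response in KO minus response in WT was 1.52 on the log2 scale for MSR1 (3.21 against 1.69), 0.28 for CD36 (0.47 against 0.19), -0.74 for OLR1 (-2.06 against -1.32), -0.77 for STAB1 (-0.44 against 0.33) and -0.77 for VSIG4 (-0.35 against 0.42). Among the 5 called of those 12 it was 1.07 for LPL (-1.87 against -2.93, adjusted p = 1.6e-10), 0.52 for NR1H3 (0.21 against -0.31, adjusted p = 4.1e-05), 0.26 for BACH1 (1.27 against 1.01, adjusted p = 0.0071), -0.27 for MERTK (-0.92 against -0.65, adjusted p = 7.6e-04) and -0.59 for SCARF1 (2.37 against 2.96, adjusted p = 0.048). In the whole lists the difference was higher for 3 and lower for 5 of the 21 other receptors, 5 and 5 of the 22 transcription factors, and 8 and 1 of the 23 lipid and haem genes, beside 7.61% and 7.87% of all genes. EGR2 and FABP4, chosen after their values were seen, are among those called, at 0.62 (adjusted p = 1.5e-07) and 1.19 (adjusted p = 1.9e-06).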

How the results depend on the processing

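The number of members called kept within 1.5 times its value under every alternative run, except that with library totals 6 members (2 higher, 4 lower) were called for the IFN-γ response in WT in place of 10. Leaving out each library in turn gave 8 to 9 called members for KO against WT with IFN-γ, 8 to 10 without it, 9 to 10 for each response and 5 for the difference. Of 478 values of single members under other settings 469 kept their direction and side of the threshold, 3 changed sign, 5 lost and 1 gained a call; of 360 values with a library left out these numbers were 349, 3, 6 and 2. With library totals CD36 stood at -0.041 for KO against WT with IFN-γ, CD36 at -0.062 and MRC1 at -0.0012 for the response in WT. The difference of responses of COLEC12 ranged from -3.22 to 0.080 and that of MRC1 from -0.020 to 0.27 over the left-out libraries; the signs changed without KO replicate 1 (COLEC12, 0.041), or KO replicate 3 (COLEC12, 0.080; MRC1, -0.020), with IFN-γ. The cause was not tested. With counts halved 8, 8, 9, 9 and 5 members were called in the order above, with MARCO not tested there or at 5 CPM in 3 libraries. At this depth MARCO, and COLEC12 in KO with IFN-γ, rest on few counts.

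With the replicate number as a block 8, 9, 10, 10 and 5 members were called, as without it. The numbers did not pair the samples: over 10747 genes same-numbered libraries correlated at -0.15 to 0.25 in their deviations from the group means, 2 of 18 such pairs exceeded 0.1, and 4 of 12 libraries correlated best with their own number.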

Other observations

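The 3 further gene lists were also described for their response to IFN-γ, in which 28.6% of all genes rose and 27.9% fell in WT, and 29.2% rose and 31.8% fell in KO. Of the 22 transcription factors 14 rose and 5 fell in WT, and 15 rose and 4 fell in KO, at medians of 0.39 and 0.53 against -0.02 and -0.05 over all genes. MAF was not called in either genotype, at 17.5 ± 1.74 CPM with IFN-γ against 17.6 ± 2.12 without it in WT (log2 fold change -0.01, 95% interval -0.24 to 0.21, adjusted p = 0.94, edgeR). Of the 21 other receptors 9 rose and 6 fell in WT, and 9 rose and 5 fell in KO. SCARF1 rose from 1.24 ± 0.303 to 9.85 ± 0.207 CPM in WT (2.96, SE 0.15, adjusted p = 1.2e-17), while MERTK fell in both genotypes (-0.65 in WT and -0.92 in KO). Of the 23 lipid and haem genes 9 rose and 11 fell in WT, and 10 rose and 12 fell in KO. LPL fell from 276 ± 8.11 to 36.0 ± 4.58 CPM in WT (-2.93, SE 0.06, adjusted p = 3.2e-28) and from 79.6 ± 2.47 to 21.8 ± 1.38 in KO (-1.87, SE 0.07, adjusted p = 5.3e-22). SLC40A1 fell from 14.6 ± 1.15 to 4.18 ± 0.596 CPM in WT and from 30.8 ± 0.771 to 7.37 ± 0.459 in KO. These counts of rises and falls were taken with TMM scaling only.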
